A study of Mus musculus with 9 samples.

Results

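Heat shock proteins and molecular chaperones were followed across naive, effector and postmitotic CD8+ T cells from a mouse model of graft-versus-host disease. A gene was included if its symbol placed it among the heat shock protein families (Hsp90, Hspa to Hsph, leaving out Hspg2), the J proteins (Dnaja, Dnajb and Dnajc) or the subunits of the chaperonin CCT (Cct2 to Cct8 and Tcp1), or if it was Stip1, St13, Ahsa1, Chordc1 or Hsf1. This gave 76 of the 13152 genes measured, 38 of them J proteins. Each gene is represented by 1 probe set that names no other gene, the brightest of those available. Of the 76, 43 had several such probe sets.

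Chaperones bind unfolded or partly folded proteins, stop them from aggregating and let them fold. HSP70 proteins do this in a cycle of ATP hydrolysis that J proteins start and that nucleotide exchange factors such as the HSP110 proteins end, and adaptors pass some clients on to HSP90. HSP60 in mitochondria and CCT in the cytosol enclose their clients in a chamber. The transcription factor HSF1 raises many of these genes during heat or protein stress by binding heat shock elements in their promoters. T cells that divide and secrete proteins make heavy use of the same machinery in the cytosol, the endoplasmic reticulum and the mitochondria.

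Expression was measured on 9 Affymetrix mouse arrays, 3 biological replicates for each population. Naive cells, CD44-lo and CD62L-hi, were pooled for each array from 2 healthy C3H.SW females. Both other populations were taken from 4 pooled male B6/SJL recipients for each array, 14 days after a 10 Gy dose of radiation and a graft that held CD44-lo/CD62L-hi CD8+ T cells of female C3H.SW donors and bone marrow depleted of T cells. Effector cells, called effector memory in the labels, were sorted as CD44-hi and CD62L-lo, and postmitotic cells as CD44-lo and CD62L-hi, the same surface type as naive cells. Radiation, the graft and the recipient strain are therefore shared by the effector and postmitotic groups and absent from the naive group, and no irradiated mice without donor T cells are among the samples. The labels name no batch, preparation day or age. Values are the deposited log2 signals, on which a probe set with no signal stands at 6.64, so folds of dim genes are understated. The levels of different genes are not compared, since probe sets differ in brightness.

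The arrays followed their labels at the sort marker Cd44. It stood between 10.89 and 11.28 on the effector arrays and at or below 7.60 on the other arrays. Of 9 T cell identity genes, all were above zero signal. Effector replicate 3 and postmitotic replicate 3 carried signal of the Y-linked gene Eif2s3y (9.50 and 11.47, against at most 7.02 elsewhere). Ddx3y, also Y-linked, read 8.25 and 9.61 there, against at most 7.38 elsewhere. The X-linked gene Xist was lowest on postmitotic replicate 3 (12.07, against 13.01 or more elsewhere). The T cell donors were female and the recipients male, and the source of the Y-linked signal was not tested. The calls lost without both arrays with Y-linked signal are named with the counts below.

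Heat shock elements are the sequences that HSF1 binds, so the promoters of the members were searched for them. The windows run from 250 bases before to 50 bases after the RefSeq transcription start on mouse assembly GRCm38.p6, and 61 members had an entry. The 15 without one include Hsf1, Hspa8, Hspa9, Hsp90aa1 and Hsp90ab1. A heat shock element was taken as 3 inverted units, GAANNTTCNNGAA or TTCNNGAANNTTC on either strand, where N is any base. It was present in 5 members (8.2%), Chordc1, Dnajb6, Hspd1, Hspe1 and Hsph1, and in 179 of 27025 genes with a promoter in the table (0.662%). A pair of units, GAANNTTC or TTCNNGAA, which the longer element also contains, was present in 18 members (29.5%) and in 4587 genes (17%). The sequences below are those around the element in 4 members whose levels are described further on, with the element in capitals, 5′ to 3′ on the strand of the gene. They lie at chr5:149636280-149636308 (minus strand) for Hsph1, chr9:18292233-18292296 (plus) for Chordc1, chr1:55088029-55088106 (plus) for Hspe1 and chr5:29735822-29735894 (plus) for Dnajb6.
Hsph1: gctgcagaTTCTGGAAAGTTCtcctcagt
Chordc1: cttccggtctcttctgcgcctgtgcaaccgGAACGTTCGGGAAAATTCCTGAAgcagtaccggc
Hspe1: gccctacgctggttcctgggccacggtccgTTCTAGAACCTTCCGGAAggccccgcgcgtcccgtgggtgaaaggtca
Dnajb6: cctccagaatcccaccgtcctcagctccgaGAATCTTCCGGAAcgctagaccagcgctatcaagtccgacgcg
The element of Hsph1 begins 15 bases after one annotated start, that of Chordc1 4 bases before its start, and that of Hspe1 89 bases before. Hspd1, which lies head to head with Hspe1, holds the same element on the other strand, 144 bases before its own start.

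Dnaja1, Dnajb4, Hspa1a and Hspa1b had a pair of units and no longer element. These are shown because their levels, or those of a near-identical copy, are among the largest differences below. They lie at chr4:40722314-40722381 (plus strand) for Dnaja1, chr3:152193822-152193889 (minus) for Dnajb4, chr17:34972223-34972290 (minus) for Hspa1a and chr17:34959305-34959372 (minus) for Hspa1b.
Dnaja1: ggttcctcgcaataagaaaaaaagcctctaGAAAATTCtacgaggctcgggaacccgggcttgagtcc
Dnajb4: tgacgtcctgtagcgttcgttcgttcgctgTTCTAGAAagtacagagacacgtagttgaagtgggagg
Hspa1a: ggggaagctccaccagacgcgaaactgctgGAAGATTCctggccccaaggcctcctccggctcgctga
Hspa1b: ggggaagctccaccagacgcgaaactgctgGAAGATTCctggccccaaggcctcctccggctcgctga
The stretches of Hspa1a and Hspa1b are identical over the 68 bases shown. Dnaja1 and Dnajb4 have further annotated starts, whose windows held no pair. Other members described below held neither the pair nor the longer element, among them Dnajb1, Dnajb2, Hspa2, Hspb11, Hspbp1 and Stip1.

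In effector cells, more chaperone genes stood below the naive level than above it. Dnajb2, Dnaja1, Hsph1, Dnajb4, Dnajb1, Chordc1, Stip1 and Hspa1b were among those that fell, and Hspa2, Hsp90b1 and Dnajb6 among those that rose. At a limma adjusted p under 0.05, effector cells differed from naive cells at 32 of the 76 members (42.1%, against 30.8% of all genes), with 7 above naive (14.5% of all genes) and 25 below (16.3%). The median log2 difference was -0.14 over the members and -0.06 over all genes. The arrays of the 2 groups did not overlap for 44 members, or 57.9%, against 45.1% of all genes. The selection in the authors' deposited table, at p under 0.01 and a fold over 1.5, held 18 members (18.4% of all genes were selected). Without both arrays with Y-linked signal 24 members were called, 7 higher and 17 lower (23.6% of all genes were called there). Cct3, Dnajb5, Dnajc5, Dnajc5b, Dnajc7, Dnajc28, Hsf1 and Hspa4 were no longer called (adjusted p 0.0679 to 0.165).

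Between postmitotic and naive cells, which share a surface type, 18 members differed (23.7%, against 11.8% of all genes), 6 higher (6.13% of all genes) and 12 lower (5.7%). The median difference was 0.02, against -0.01 over all genes, and the arrays did not overlap for 32 members (42.1%, against 29.3%). The authors' deposited table selected 10 members there (6.06% of all genes). Hsph1, Dnajc12, Dnaja1, Dnajb1 and Dnajb2 fell the most, and Dnajc15, Dnajc17 and Hspbp1 rose the most. Without both arrays with Y-linked signal 5 were called, Dnaja1, Dnajb2, Dnajc15, Hspbp1 and Hsph1 (3.81% of all genes were called there). The other 13 kept their direction but did not pass there (adjusted p 0.0558 to 0.167), among them Hspa4 (0.0598), Dnajc12 (0.064), Hspa9 (0.0766), Dnajc17 (0.0835), Chordc1 (0.0837), Dnajc24 (0.0848) and Stip1 (0.0915). The count was 7 when the 6 arrays compared were fitted alone (4.37% of all genes were called) and 9 without naive replicate 3 (6.46%). Postmitotic cells differed from effector cells at 24 members (31.6%, against 24.9% of all genes), 17 higher (13.2%) and 7 lower (11.8%), with a median of 0.14 against 0.04. The arrays did not overlap for 40 (52.6%, against 42.3%), and the authors' deposited table selected 13 (14.7% of all genes). Without both arrays with Y-linked signal 15 were called (15.2% of all genes were). Ahsa1, Cct4, Dnaja3, Dnaja4, Dnajb5, Dnajb6, Dnajc30, Hspa1b and St13 no longer passed there (adjusted p 0.0503 to 0.211). The 3 comparisons share arrays in pairs, so they are not independent of each other. In all, 37 members passed the test in none of the 3 comparisons, and Hspa12b, one of these, was at or below zero signal in every group mean.

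**Figure D1:**
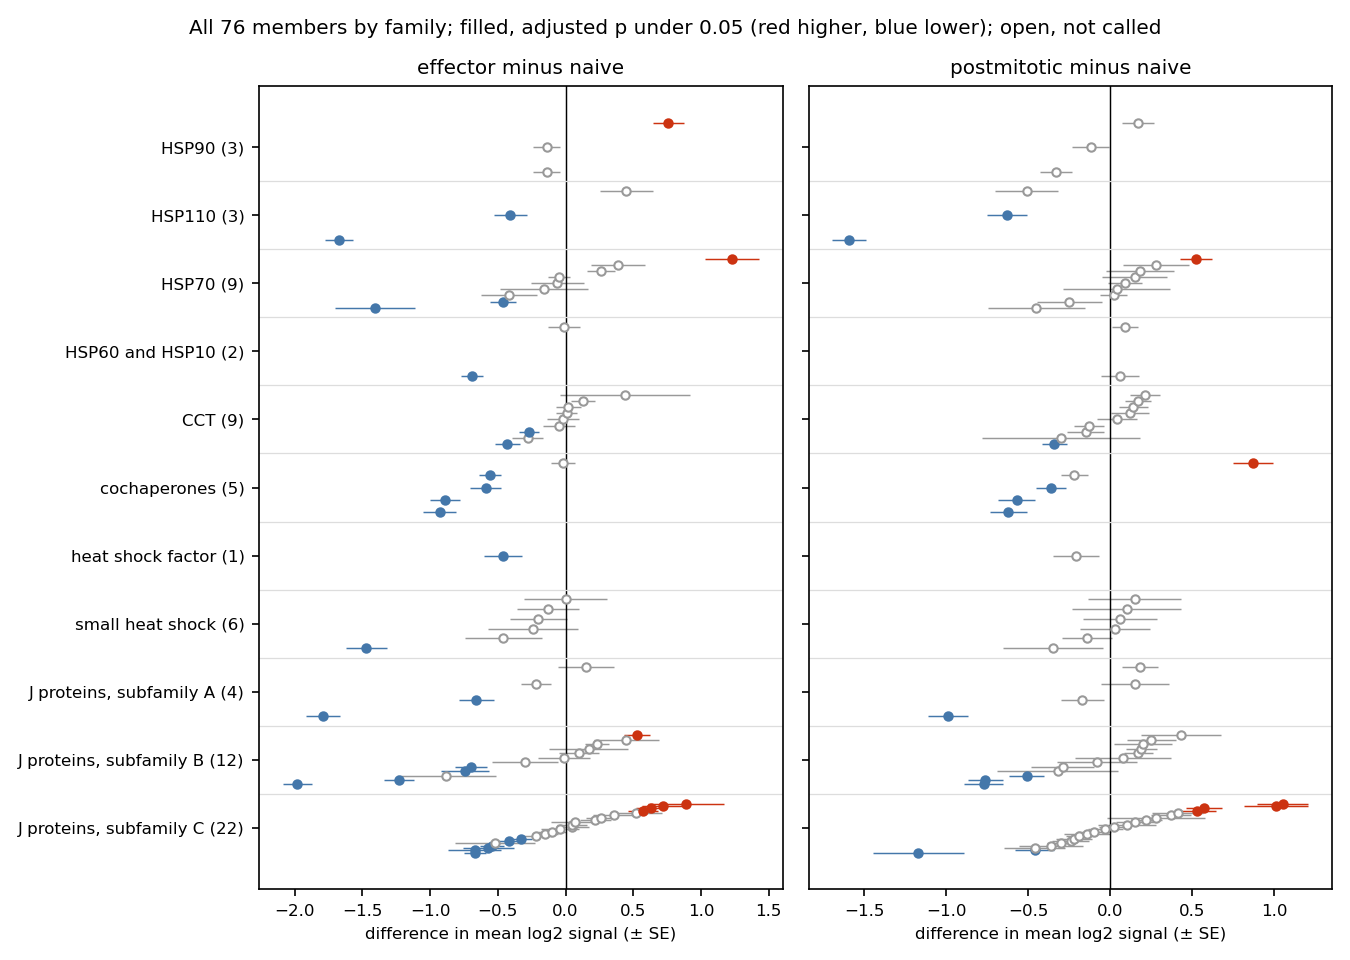
Difference in mean log2 signal, with its standard error, for the 76 members in effector minus naive (left) and postmitotic minus naive cells (right), 3 arrays a group. Each point is a gene, grouped by family with the number of members in brackets; filled points passed at an adjusted p under 0.05, 7 red and 25 blue on the left, 6 red and 12 blue on the right.

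The heat shock factor gene itself was measured at 8.65, 9.18 and 9.10 in naive cells, 8.57, 8.46 and 8.53 in effector cells, and 8.74, 8.82 and 8.74 in postmitotic cells. Hsf1 was lower on every effector array than on any naive array, and the postmitotic arrays fell within the naive range. The effector difference of -0.46 ± 0.14 (SE) passed narrowly (adjusted p = 0.0387). It did not pass without naive replicates 2 or 3, or any 1 effector or postmitotic array (adjusted p 0.0527 to 0.12).

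The constitutive HSP70 of the cytosol, Hspa8, passed in no comparison. Its values were 15.28, 15.23 and 15.22 in naive cells, 15.13, 15.25 and 15.20 in effector cells, and 15.23, 15.23 and 15.34 in postmitotic cells. The groups overlapped, and the effector difference was -0.05 ± 0.08 (SE, adjusted p = 0.699). The 3 further probe sets that name Hspa8 together with other genes gave effector minus naive differences of -0.51, -0.48 and -0.14 and were not tested.

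Hspa1b, the stress-inducible HSP70, was 9.40, 9.16 and 9.18 in naive cells and 7.76, 7.96 and 7.79 in effector cells. It fell by 1.41 ± 0.30 on the log2 scale, or 2.65-fold (adjusted p = 0.00717). In postmitotic cells the values spread over 8.52, 9.57 and 8.29, so that replicate 2 lay above every naive array and the others below. The postmitotic mean, 8.79 ± 0.69 (SD, n = 3), did not pass against naive cells (log2 -0.45, adjusted p = 0.385). It passed against effector cells (0.96, adjusted p = 0.0474), but not without any 1 of the naive or effector arrays or postmitotic replicate 1 (adjusted p 0.0573 to 0.122). Hspa1a, a near-identical copy, was dim, at 7.60, 7.13 and 7.33 in naive, 7.07, 7.38 and 7.42 in effector and 6.88, 7.48 and 6.94 in postmitotic cells, with overlapping groups. Probes can bind both copies, so the assignment of signal between Hspa1a and Hspa1b is uncertain.

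Hspa2, an HSP70 best known from the testis, went the other way. The naive arrays gave 6.89, 7.41 and 6.86, the effector arrays 8.39, 8.15 and 8.32, and the postmitotic arrays 7.20, 6.89 and 7.52. Effector cells stood apart from both other groups, which overlapped. The rise over naive was 1.23 ± 0.20 (2.35-fold, adjusted p = 0.00186), and postmitotic cells were 1.08 below effector cells (adjusted p = 0.00448). Naive and postmitotic values were close to zero signal, so this fold is approximate. Hspa14, an HSP70 bound to ribosomes, and its partner J protein Dnajc2 did not pass in any comparison (0.39 and 0.36 in effector minus naive cells), nor did Hspa1l, which had arrays around zero signal.

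J proteins bring clients to HSP70, and 17 of 38 passed in effector minus naive cells, 5 upwards and 12 downwards (44.7%, against 30.8% of all genes). Dnajb2, a J protein that also binds ubiquitin, gave the largest of these differences. It read 10.22, 9.93 and 10.14 in naive cells, 8.16, 8.19 and 7.98 in effector cells and 9.36, 9.34 and 9.31 in postmitotic cells. The 3 groups did not overlap. Dnajb2 was 3.95-fold lower in effector cells (log2 -1.98 ± 0.11, adjusted p = 4.92e-06) and 1.69-fold lower in postmitotic cells (-0.76, adjusted p = 0.00455), and postmitotic cells stood 1.23 above effector cells (adjusted p = 9.24e-05).

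Dnaja1, a main partner of Hspa8, showed the same order of groups. Its signal was 13.92, 14.28 and 14.05 in naive cells, 12.28, 12.30 and 12.30 in effector cells, and 13.07, 13.26 and 12.95 in postmitotic cells. It fell 3.46-fold in effector (-1.79 ± 0.12, adjusted p = 1.73e-05) and 1.99-fold in postmitotic cells (-0.99, adjusted p = 0.00268), and the groups did not overlap. A second probe set of Dnaja1 gave -1.41 and -1.17 for these differences and another gave 0.31 and 0.27.

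Dnajb1, the classical heat-inducible HSP40, was 14.25, 14.51 and 14.33 in naive cells, 13.64, 13.65 and 13.70 in effector cells and 13.48, 13.81 and 13.50 in postmitotic cells. Both groups from recipients lay below every naive array and overlapped with each other. The differences from naive were -0.70 ± 0.12 for effector (1.62-fold lower, adjusted p = 0.00239) and -0.77 for postmitotic cells (1.70-fold lower, adjusted p = 0.00627); the second lost its call without both arrays with Y-linked signal (-0.72, adjusted p = 0.0558).

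Dnajb4, a close relative of Dnajb1, had naive values of 10.53, 10.68 and 10.52, effector values of 9.23, 9.46 and 9.33, and postmitotic values of 10.02, 10.22 and 9.95. Postmitotic cells sat between the other groups with no overlap. The effector decrease was 2.35-fold (-1.23 ± 0.11, adjusted p = 6.92e-05) and the postmitotic one 1.43-fold (-0.51, adjusted p = 0.0208). The latter did not pass without naive replicates 2 or 3 or postmitotic replicates 1 or 3 (adjusted p 0.0539 to 0.0616), and averaging its probe sets gave -0.23 (adjusted p = 0.414).

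**Figure D2:**
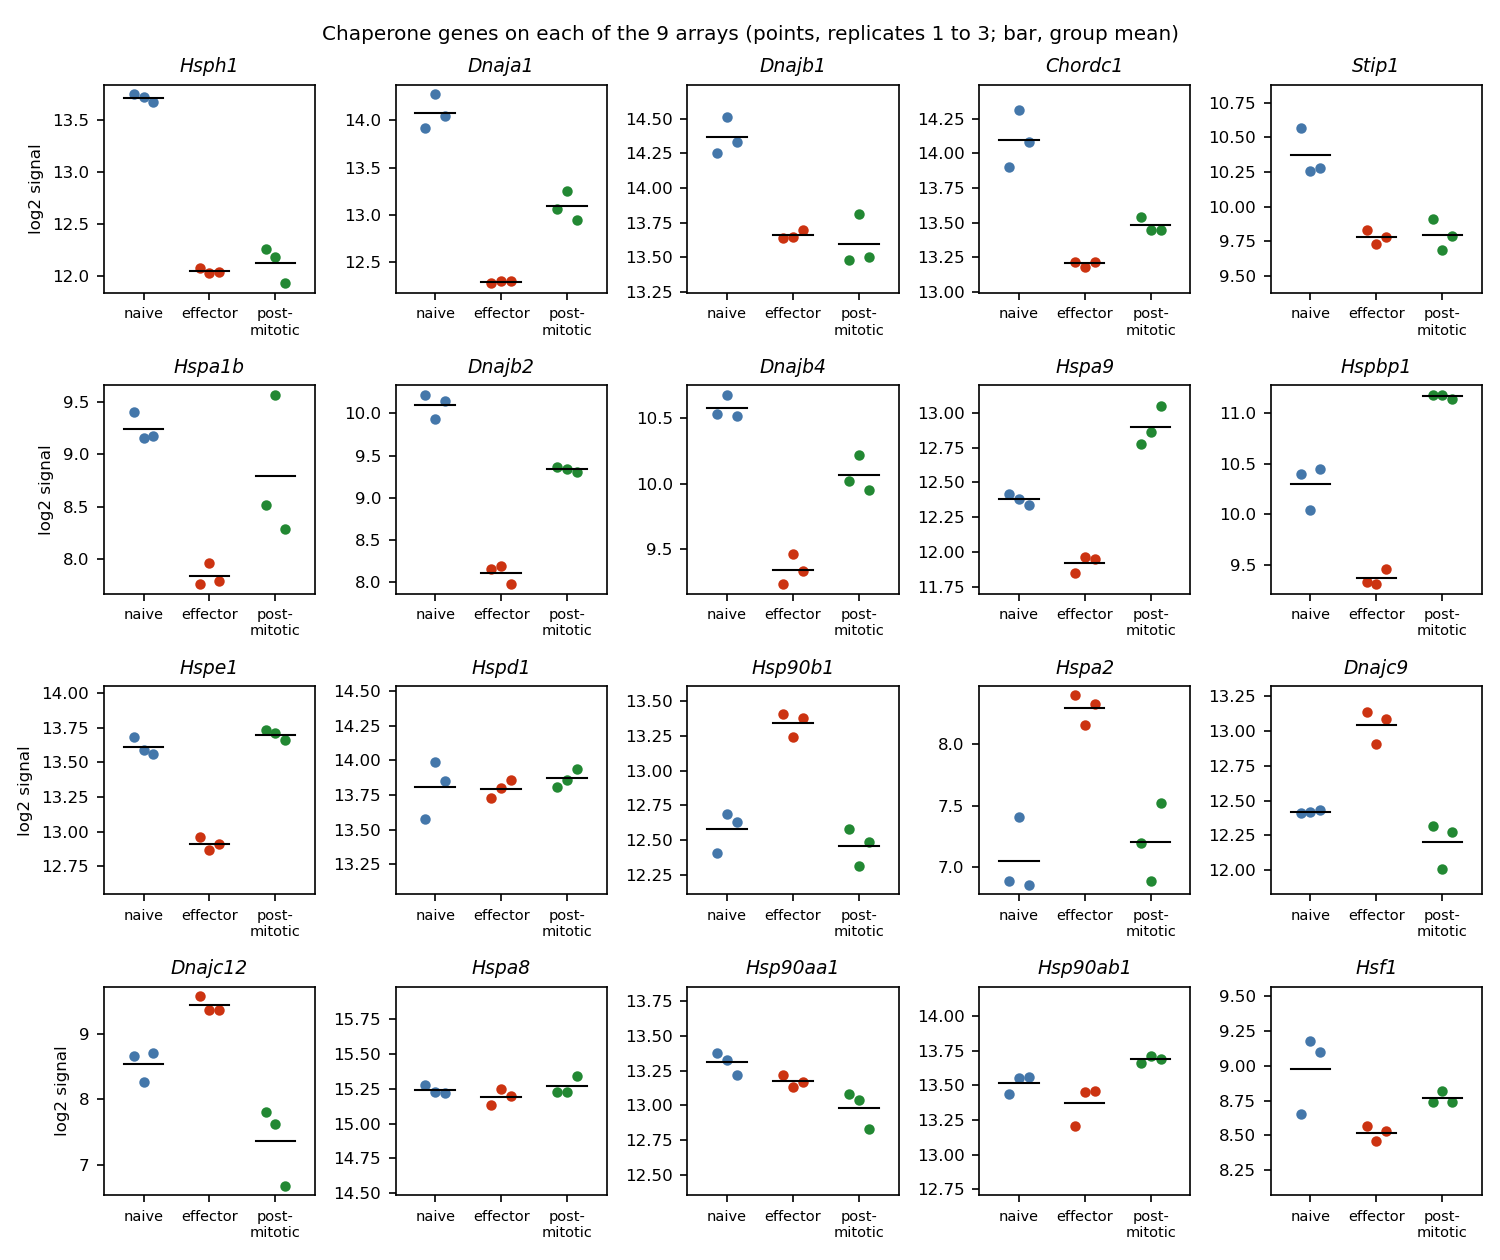
Log2 signal of 20 members on each array; points are replicates 1 to 3, bars group means, and each panel has its own vertical range of at least 1.5 log2 units. Dnajb2 fell from 9.93 or more on the naive arrays to 8.19 or less on the effector arrays, whereas Hspa8 stayed between 15.13 and 15.34 on all 9.

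Among the other J proteins of subfamilies A and B, Dnajb5 fell in effector cells (-0.74, adjusted p = 0.014) and did not differ from naive in postmitotic cells (0.20, adjusted p = 0.539). Its effector call was lost without naive replicate 3 or effector replicates 1 or 3 (adjusted p 0.0509 to 0.0551). Dnajb6, which keeps aggregation-prone proteins soluble and holds a heat shock element, rose in effector cells (0.53 ± 0.10, 1.44-fold, adjusted p = 0.0035), from 12.27, 12.45 and 12.32 to 12.83, 12.87 and 12.92. Averaged over its 4 probe sets, 1 of which ran the other way, Dnajb6 did not pass (0.29, adjusted p = 0.246). Dnajb13, Dnajb12, Dnajb3, Dnajb7, Dnajb8 and Dnaja2 passed in no comparison; Dnajb3 and Dnajb7 had arrays at or below zero signal. Dnaja4 was higher in postmitotic than in effector cells (0.40, adjusted p = 0.0278), a call lost in 5 of 9 fits without 1 array (0.0534 to 0.0921).

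In subfamily C, whose members mostly have specialised tasks, 4 of 22 rose and 6 fell in effector cells (45.5% called, against 30.8% of all genes). Dnajc9, which carries histones H3 and H4, was 12.41, 12.42 and 12.43 in naive cells, 13.14, 12.91 and 13.09 in effector cells and 12.32, 12.01 and 12.27 in postmitotic cells. Effector cells were the group that stood apart, 1.55-fold above naive (0.63 ± 0.11, adjusted p = 0.0029) and 1.81-fold above postmitotic cells (adjusted p = 0.000748). Dnajc24, an enzyme of diphthamide synthesis on a translation elongation factor, was 9.37, 9.01 and 9.30 in naive cells, against 9.84, 9.75 and 9.80 in effector and 9.80, 9.81 and 9.79 in postmitotic cells. It was 1.48-fold and 1.49-fold above naive in those groups (adjusted p = 0.00469 and 0.0148), but with its probe sets averaged neither passed (0.39, adjusted p = 0.0659, and 0.19, adjusted p = 0.445), and the postmitotic call was lost with only the 6 arrays compared (0.0682).

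Dnajc12, a J protein linked to the aromatic amino acid hydroxylases, had the largest difference between postmitotic and effector cells. The naive values were 8.66, 8.26 and 8.71, the effector values 9.57, 9.36 and 9.36, and the postmitotic values 7.81, 7.62 and 6.69. The 3 groups did not overlap, with effector cells highest and postmitotic cells lowest. Postmitotic cells were 4.16-fold below effector cells (-2.06 ± 0.28, adjusted p = 0.000959) and 2.25-fold below naive cells (-1.17, adjusted p = 0.0321), and effector cells were 1.85-fold above naive cells (0.89, adjusted p = 0.0425). Postmitotic replicate 3, which carried Y-linked signal, was the lowest; without it the differences were -1.71 and -0.83. The call against naive was lost without naive replicates 1 or 3, any 1 effector array or postmitotic replicate 2 (adjusted p 0.053 to 0.0978), and the effector rise without any 1 naive or effector array or postmitotic replicate 2 (adjusted p 0.0534 to 0.125).

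Dnajc17, found with splicing proteins in the nucleus, rose in postmitotic cells. It was 7.97, 7.38 and 7.38 in naive, 7.87, 8.42 and 8.01 in effector and 8.57, 8.65 and 8.55 in postmitotic cells. The postmitotic arrays lay above all others, 2.02-fold over naive (1.01 ± 0.20, adjusted p = 0.015), while naive and effector arrays overlapped. The call was lost without naive replicate 3 or postmitotic replicate 2 (adjusted p 0.0515 to 0.0537), with its probe sets averaged (0.71, adjusted p = 0.0556) and without both arrays with Y-linked signal (0.0835). Of the remaining C members, Dnajc7 (-0.42), Dnajc5 (-0.33), Dnajc28 (-0.67) and Dnajc5b (-0.57) fell in effector cells, and each lost its call in at least 2 fits without 1 array (adjusted p up to 0.144). Dnajc14 fell in postmitotic minus naive cells (-0.46, adjusted p = 0.0421), a call lost in 8 of 9 such fits (up to 0.12). Dnajc4, Dnajc11, Dnajc13, Dnajc18, Dnajc21 and Dnajc27 passed in no comparison.

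The HSP110 proteins recharge HSP70 by exchanging its nucleotide. Hsph1, the heat-inducible one, was 13.75, 13.72 and 13.67 in naive cells, 12.08, 12.03 and 12.04 in effector cells and 12.26, 12.18 and 11.93 in postmitotic cells. The effector and postmitotic arrays overlapped with each other, far below the naive arrays. Hsph1 was 3.18-fold lower in effector cells (-1.67 ± 0.10, adjusted p = 9.76e-06) and 3.01-fold lower in postmitotic cells (-1.59, adjusted p = 0.000214), and its second probe set gave -1.33 and -1.43. The groups from recipients differed from each other by 0.08 (adjusted p = 0.652).

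Hspa4, the constitutive HSP110, was 12.60, 12.51 and 12.60 in naive cells, 12.31, 12.02 and 12.16 in effector cells and 12.02, 11.72 and 12.07 in postmitotic cells, again with all naive arrays highest. The differences were -0.41 ± 0.12 (adjusted p = 0.0346) and -0.63 (adjusted p = 0.015). The first did not pass without any 1 naive array or effector replicates 2 or 3 (adjusted p 0.0574 to 0.121), nor the second without naive replicate 3 (0.0521), and 1 of its 3 probe sets gave 0.06 and 0.01. Hspa4l, the remaining member, was 8.77, 8.73 and 8.77 in effector cells and 7.69, 7.63 and 8.07 in postmitotic cells, 1.95-fold lower in the latter (-0.96 ± 0.19, adjusted p = 0.00722), with naive values of 8.33, 8.66 and 7.92.

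Of the 5 cochaperones among the members, 4 fell in effector cells (16.3% of all genes did). Stip1, which joins HSP70 to HSP90, was 10.57, 10.26 and 10.28 in naive, 9.83, 9.73 and 9.78 in effector and 9.91, 9.69 and 9.79 in postmitotic cells. Both later groups lay below all naive arrays, by 0.59 ± 0.11 in effector cells (1.51-fold lower, adjusted p = 0.00451) and by 0.57 in postmitotic cells (1.49-fold lower, adjusted p = 0.0164; 0.0555 without postmitotic replicate 2). Chordc1, an HSP90-binding protein with a heat shock element at its start, was 13.90, 14.31 and 14.08, then 13.22, 13.18 and 13.22, and then 13.54, 13.45 and 13.45 in the same order of groups. It was 1.86-fold lower in effector (-0.89 ± 0.11, adjusted p = 0.000537) and 1.54-fold lower in postmitotic cells (-0.62, adjusted p = 0.0127), with no overlap between any groups. The postmitotic call was lost with only the 6 arrays compared (adjusted p = 0.0635) and without both arrays with Y-linked signal (0.0837).

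Hspbp1, which releases nucleotide from HSP70 and inhibits its cycle, moved in opposite directions. The naive arrays gave 10.40, 10.04 and 10.45, the effector arrays 9.33, 9.31 and 9.46 and the postmitotic arrays 11.18, 11.18 and 11.14. The groups did not overlap, with effector cells lowest and postmitotic cells highest. The effector difference from naive was -0.93 ± 0.12 (1.90-fold lower, adjusted p = 0.000618), the postmitotic one 0.87 (1.83-fold higher, adjusted p = 0.00446), and postmitotic cells exceeded effector cells 3.48-fold (1.80, adjusted p = 2.71e-05). These calls held in every fit without 1 array. Ahsa1, which speeds the ATPase of HSP90, fell in effector cells (-0.56, 1.47-fold, adjusted p = 0.0012), and St13, which stabilises HSP70 bound to ADP, fell in postmitotic cells (-0.36, adjusted p = 0.0389), a call lost without any 1 of the 9 arrays (adjusted p 0.0597 to 0.1).

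HSP90 finishes the folding of kinases and receptors, and its 2 cytosolic forms passed in no comparison. Hsp90aa1, the inducible form, was 13.38, 13.33 and 13.22 in naive, 13.22, 13.13 and 13.17 in effector and 13.08, 13.04 and 12.83 in postmitotic cells. Its postmitotic arrays were lower than all naive arrays, by 0.33 on average, but this did not pass (adjusted p = 0.0704). Hsp90ab1, the constitutive form, was 13.44, 13.55 and 13.56 in naive, 13.21, 13.45 and 13.46 in effector and 13.66, 13.71 and 13.69 in postmitotic cells, highest in the last (0.17 over naive, adjusted p = 0.324).

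The CCT chaperonin folds actin and tubulin, and its 8 subunits measured beside the testis form Cct6b showed small differences. In effector minus naive cells these ran from -0.43 to 0.13 with a median of -0.04, and Cct4 (-0.43 ± 0.09, adjusted p = 0.00697) and Cct3 (-0.27 ± 0.08, adjusted p = 0.0285) fell. In postmitotic minus naive cells, 1 subunit of 8, Cct3, fell (-0.34, adjusted p = 0.0248). Of all genes, 16.3% fell in effector minus naive cells and 5.7% in postmitotic minus naive cells. Cct3 has 6 probe sets that disagree in sign; their mean gave -0.14 in effector cells (adjusted p = 0.338) and 0.03 in postmitotic cells (adjusted p = 0.884). The effector call of Cct3 was also lost without naive replicates 2 or 3 or any 1 effector array (adjusted p up to 0.0969). Cct2, Cct5, Cct6a, Cct7, Cct8 and Tcp1 passed in no comparison, nor did Cct6b, whose arrays spread around zero signal.

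The small heat shock proteins Hspb1, Hspb2, Hspb3, Hspb7 and Hspb8 passed in no comparison, and Hspb2 and Hspb3 had arrays at or below zero signal. Hspb11, named as a member of this family but known as the intraflagellar transport protein IFT25, did differ. It was 10.95, 10.77 and 10.89 in naive cells, 9.50, 9.49 and 9.20 in effector cells and 11.00, 10.72 and 10.47 in postmitotic cells. Effector cells were 2.77-fold below naive cells (-1.47 ± 0.15, adjusted p = 0.000181), and postmitotic cells were 2.52-fold above effector cells (1.33, adjusted p = 0.000408) and overlapped with naive cells.

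The 7 members assigned here to the endoplasmic reticulum did not move as a block. Other members may also lie in that compartment. Hsp90b1, the HSP90 of that compartment and a chaperone of integrins and Toll-like receptors, was 12.41, 12.69 and 12.63 in naive, 13.41, 13.24 and 13.38 in effector and 12.58, 12.31 and 12.49 in postmitotic cells. It stood highest in effector cells, 1.70-fold above naive (0.76 ± 0.12, adjusted p = 0.00132) and 1.84-fold above postmitotic cells (adjusted p = 0.000787), and naive and postmitotic arrays overlapped. A second probe set gave 0.90 and -0.97 for effector minus naive and postmitotic minus effector.

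Hspa5, the HSP70 of the compartment and sensor of unfolded protein, was 13.19, 13.26 and 13.25 in naive, 13.50, 13.46 and 13.51 in effector and 13.46, 13.40 and 13.12 in postmitotic cells. All effector arrays exceeded all naive arrays, yet the difference of 0.26 ± 0.11 did not pass (adjusted p = 0.106); a second probe set gave 0.58. The J proteins Dnajc10 (-0.67 ± 0.08, adjusted p = 0.000411), which also reduces disulphides, and Dnajc3 (-0.54 ± 0.09, adjusted p = 0.00202), an inhibitor of the kinase PERK, fell in effector cells. Dnajb9, Dnajb11 and Dnajc1 passed in no comparison. In postmitotic minus naive cells none of the 7 passed at an adjusted p under 0.05, as 11.8% of all genes did. Of the 7, 1 had an unadjusted p under 0.05. With 7 genes and that share, the absence of calls says little about this compartment.

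Of 8 members assigned here to mitochondria, 3 fell in effector cells (16.3% of all genes did). In postmitotic minus naive cells 3 rose (6.13% of all genes did), Hspa9, Dnajc15 and Dnajc19. Other members may also lie in mitochondria. Hspa9, the HSP70 that pulls proteins into the matrix, was 12.42, 12.38 and 12.34 in naive, 11.85, 11.96 and 11.95 in effector and 12.78, 12.86 and 13.05 in postmitotic cells. The groups did not overlap. Hspa9 was 1.38-fold lower in effector cells (-0.46 ± 0.10, adjusted p = 0.00721), 1.43-fold higher in postmitotic cells (0.52, adjusted p = 0.0137) and 1.97-fold higher in postmitotic than in effector cells (0.98, adjusted p = 0.000186). The postmitotic call against naive had an adjusted p of 0.0516 without naive replicate 3, and the mean of its 3 probe sets gave -0.24 for effector minus naive (adjusted p = 0.0661).

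Hspe1 and Hspd1, the lid and the chamber of the mitochondrial chaperonin, are transcribed from opposite strands of the promoter shown above. Hspe1 was 13.68, 13.59 and 13.56 in naive, 12.96, 12.87 and 12.91 in effector and 13.73, 13.71 and 13.66 in postmitotic cells. It fell in effector cells (1.62-fold, -0.69 ± 0.08, adjusted p = 0.000354) and overlapped with naive cells on the postmitotic arrays (0.09 above naive, adjusted p = 0.539). Hspd1 was 13.58, 13.99 and 13.85, then 13.73, 13.80 and 13.86, then 13.81, 13.86 and 13.94 in that order, with overlap between all groups and an effector difference of -0.01 ± 0.12.

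Dnajc15, which lies in the inner membrane and restrains the respiratory chain, was 10.76, 10.39 and 10.70 in naive, 11.15, 11.49 and 11.37 in effector and 11.68, 11.88 and 11.44 in postmitotic cells. All arrays from recipients were above all naive arrays, 1.65-fold in effector cells (0.72 ± 0.16, adjusted p = 0.00832) and 2.07-fold in postmitotic cells (1.05, adjusted p = 0.00564). Its relative Dnajc19, a subunit of the import motor, rose in postmitotic cells (0.53 over naive, adjusted p = 0.0201), a call lost with its probe sets averaged (0.12, adjusted p = 0.687) and without naive replicates 2 or 3 or postmitotic replicates 1 or 2 (0.0571 to 0.0727). Dnaja3 fell in effector cells (-0.66 ± 0.13, adjusted p = 0.00505). Between postmitotic and effector cells, 4 of the 8, Hspa9, Hspe1, Dnaja3 and Dnajc30, rose (13.2% of all genes did). The median of the 8 was 0.35, against 0.04 over all genes, and the lowest was 0.07. Dnaja3 and Dnajc30 lost that call in 4 fits each without 1 array (adjusted p 0.06 to 0.0937).

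**Figure D3:**
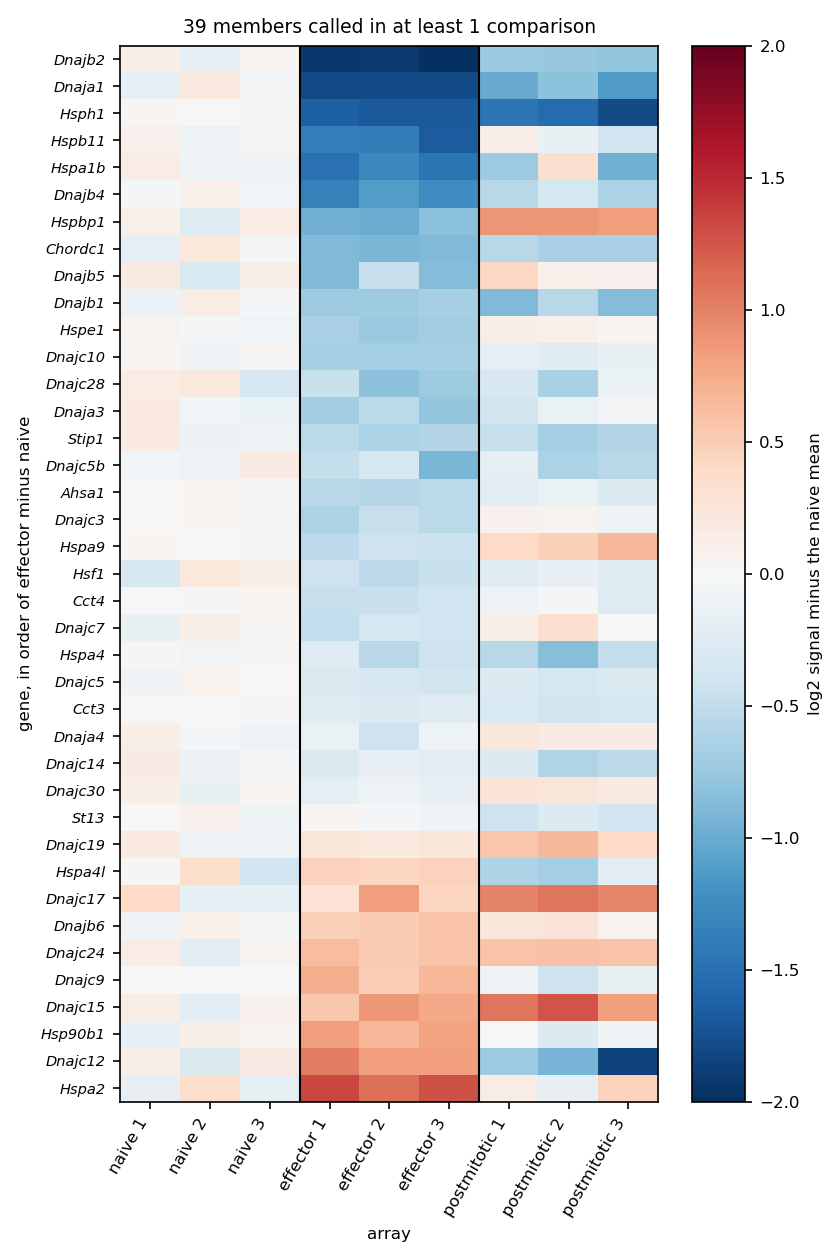
Log2 signal minus the naive mean for the 39 members that passed in at least 1 comparison, on each of the 9 arrays; the colour scale ends at 2 log2 units in either direction. Hspbp1 and Hspa9 are below naive on the effector arrays and above it on the postmitotic arrays, and Dnajc12 shows the reverse.

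Some members set postmitotic cells apart from both other groups in 1 direction, 4 of 76, while 3.13% of all genes passed that rule. Hspa9 and Hspbp1 were higher (2.63% of members, against 1.84% of all genes). Dnajc12 and St13 were lower (2.63% of members, against 1.29% of all genes). Without both arrays with Y-linked signal, Hspbp1 alone remained.

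Heat shock elements were set beside the calls as a description. Of the 20 members with a promoter entry that were lower in effector cells, 3 held the 3-unit element (Hsph1, Chordc1 and Hspe1), as did 1 of 6 that were higher (Dnajb6) and 1 of 35 that did not pass (Hspd1). For postmitotic minus naive cells the counts were 2 of 10 lower (Hsph1 and Chordc1), 0 of 5 higher and 3 of 46 not passing. Genes with the element therefore included members that fell, rose and did not pass.

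Related genes outside the members were counted in the same fit, in which 30.8%, 11.8% and 24.9% of all genes were called in effector minus naive, postmitotic minus naive and postmitotic minus effector cells. Of 27 further cochaperones, 2 rose and 5 fell in effector cells, 1 rose and 2 fell in postmitotic minus naive cells, and 2 rose and 5 fell in postmitotic minus effector cells. These are 25.9%, 11.1% and 25.9% of the list, close to or below the shares of all genes. Fkbp5, a glucocorticoid-responsive HSP90 partner, rose by 1.23 in effector cells (10.01 ± 0.05 to 11.24 ± 0.34, SD, n = 3, adjusted p = 0.00122), and Stub1, the ubiquitin ligase that acts on chaperone clients, was 0.88 lower (adjusted p = 0.00025). In postmitotic cells the HSP90 cochaperones Fkbp4 (-0.45, adjusted p = 0.0308) and Ptges3 (-0.42, adjusted p = 0.0174) fell. Among 11 prefoldin and tubulin-folding genes, 3 rose and 3 fell in effector cells, and 2 rose in postmitotic minus naive cells. In postmitotic minus effector cells 2 rose and 1 fell. In that order, these are 54.5%, 18.2% and 27.3% of the list. Tbcb gained 1.13 and Pfdn5 lost 0.92 in effector cells on the log2 scale (Pfdn5 -0.92, adjusted p = 0.00303).

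Of 24 genes for folding and the unfolded protein response in the endoplasmic reticulum, 8 rose and 5 fell in effector cells, 4 rose and 3 fell in postmitotic minus naive cells, and 4 rose and 6 fell in postmitotic minus effector cells. These are 54.2%, 29.2% and 41.7% of the list, against 30.8%, 11.8% and 24.9% of all genes. Sdf2l1, a partner of Hspa5, rose by 1.52 in effector (adjusted p = 1.65e-05) and 0.96 in postmitotic cells (adjusted p = 0.00169), and the disulphide isomerase Pdia6 by 1.27 (adjusted p = 5.83e-05) and 0.67 (adjusted p = 0.00734). The median effector difference of these genes was 0.12. Of 15 mitochondrial import, folding and protease genes, 2 rose and 2 fell in effector cells, 2 rose in postmitotic minus naive cells, and 5 rose and 1 fell in postmitotic minus effector cells (26.7%, 13.3% and 40% of the list). The matrix protease Clpp was 0.48 above naive in postmitotic cells (adjusted p = 0.0158), and Trap1, the mitochondrial HSP90, was 0.51 above effector cells (adjusted p = 0.00612).

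Genes that respond within minutes to cell handling or stimulation moved with the groups too. Of 16 immediate early genes, 5 rose and 3 fell in effector cells, 5 rose and 3 fell in postmitotic minus naive cells, and 5 rose and 4 fell in postmitotic minus effector cells (50%, 50% and 56.2% of the list). The largest called differences in effector minus naive cells were those of Ier3 (3.57), Dusp1 (2.30) and Nr4a1 (1.96). In postmitotic minus naive cells they were those of Jun (2.61), Fos (2.01) and Ier3 (1.64). Egr1 was 12.66 to 13.03 in naive, 12.26 to 12.30 in effector and at most 12.12 in postmitotic cells. Jun was 8.87 to 9.82, 8.81 to 9.44 and 11.82 to 12.36, and Dusp1 9.88 to 10.26, 12.36 to 12.51 and 10.57 to 11.24, in the same order. The summed signal of the list was 34823 to 35871 in naive, 37289 to 37727 in effector and 37767 to 41737 in postmitotic cells, and none of its genes was at zero. Their part in the chaperone differences was not tested.

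Markers of other cells were counted in the same way. Of 18 myeloid and dendritic cell markers, 5 rose and 1 fell in effector cells and none passed in postmitotic minus naive cells (0 by limma, 2 at an unadjusted p under 0.05). Their summed signal was 3321 to 4267 in naive, 6778 to 10966 in effector and 1881 to 6535 in postmitotic cells, and 4 fell in postmitotic minus effector cells. The erythroid and megakaryocytic list (12 genes) had 1 higher and 2 lower in effector cells and 1 higher in postmitotic minus naive cells, with sums of 1892 to 2718, 2543 to 2811 and 3078 to 3309 and with Alas2 and Hbb-b1 at zero. Of 11 B and plasma cell markers, 2 rose and 1 fell in effector cells; the sums were 935 to 1083, 999 to 1242 and 880 to 1113. Among 9 markers of NK and CD4 T cells, 3 rose in effector cells, Gzma and Eomes, which CD8+ effector cells also express, and Foxp3, and Ncr1, Klrb1c and Klra8 were at zero; the sums were 2516 to 2824, 25922 to 46125 and 3822 to 4134. Of 9 T cell identity genes, Zap70 (0.79), Cd3g (0.31) and Lck (0.31) were called in effector minus naive cells. The part of other cells in the chaperone differences was not tested, and in sorted pools fewer cells of a kind and less RNA per cell cannot be told apart.

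The controls for RNA integrity did not order the groups alike. The actin control's 3′ minus 5′ log2 signal, larger where RNA or its copies are shorter, was 1.28 to 1.87 in naive, 0.78 to 0.97 in effector and 1.35 to 1.48 in postmitotic cells, whereas the transferrin receptor control gave 0.38 to 0.54, 1.28 to 1.94 and 1.07 to 1.75. The Gapdh control gave 2.99 to 3.12 in naive, 2.84 to 2.88 in effector and 2.89 to 2.96 in postmitotic cells. The part of RNA integrity in the chaperone differences was not tested.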

How the data were processed

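Total RNA (600 ng) from each of 9 pools was amplified in 2 rounds, per the labels' protocols, with 1 Affymetrix array per pool. Per the file headers and the deposited description, the authors made a trimmed mean for each probe set, quantile-normalized to naive replicate 2 as the standard, and deposited log2 values taken with an offset of 50. These cannot fall below 5.64, and the median is 7.90 on each array, so shifts in total RNA cannot be seen. The floor of 5.64 is the log2 of the offset, and zero signal was taken here at 6.64, the log2 of 2 times the offset. The authors' deposited p-values are unadjusted contrasts, their fold ratios come from group means, and their deposited score is the signed fold where p was under 0.01 and the fold over 1.5. The software version is not stated in the description, and the scans were not used here.

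Gene symbols were updated by Entrez number to RefSeq GRCm38.p6. The table's 22690 probe sets comprised 64 controls, 21259 with a single gene (20752 matched to RefSeq, 507 under the deposited symbol), 826 with several and 541 without a gene. By the updated symbols 7 genes entered (Dnajc21, Dnajc24, Dnajc27, Dnajc28, Dnajc30, Hspb11 and Hspbp1) and 1, Tmem208, left. Dnajc8 is named here only by a probe set shared with another gene and was not tested. The brightest probe set over the 9 arrays stood for each gene. Differences were fitted with limma 3.58.1 in R 4.3.3 (lmFit and eBayes) on all 9 arrays with a mean per group, 6 residual and 2.14 prior degrees of freedom, and adjusted by the Benjamini-Hochberg method over 13152 genes; the fit was tested on simulated data. Nothing in the labels says that same-numbered arrays belong together, so replicate numbers were not used to pair arrays in the main fit. Deviations from the group means correlated at 0.015 to 0.062 between same-numbered arrays of different groups. Between arrays of different number they correlated at -0.052 to 0.018. Whether same-numbered arrays share a preparation was not tested, and a fit with a replicate block is among the alternatives. The labels call the replicates biological and give the number of mice pooled for each. Whether effector and postmitotic arrays of the same number came from the same recipients was not tested. Both arrays with Y-linked signal are replicate 3 of their group. The p-values treat the 9 arrays as independent and measure the spread between arrays within groups, and 3 arrays a group limit the precision.

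The members, the related gene lists and the rule for named genes were chosen with earlier results of these data known. Values on every array are given for the 10 called members with the largest difference in effector minus naive and in postmitotic minus naive cells, for the 5 in postmitotic minus effector cells, and for a set of core chaperones; Dnajb6, Dnajc9, Dnajc24 and Hspa4l were given theirs after their values were seen. Alternatives were the mean of a gene's probe sets, a filter and a floor on dim values, a trended and robust variance prior, the arrays compared alone, renewed quantile normalization, leaving out arrays, a replicate block and the authors' criteria.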

Additional observations from a re-analysis of the deposited data

How the results depend on the processing

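The count of called members in effector minus naive cells (32) was 18 (4 higher and 14 lower) by the authors' deposited p and fold criteria, 24 without both Y-linked arrays and 23 to 32 without 1 array. In postmitotic minus naive cells, 18 became 7 with the 6 arrays compared alone, 5 without both arrays with Y-linked signal, 10 by the authors' criteria and 9 to 17 without 1 array (9 without naive replicate 3). In postmitotic minus effector cells, 24 became 15 without both Y-linked arrays, 13 by the authors' criteria and 17 to 26 without 1 array. The 4 members apart in postmitotic cells became 1 without both Y-linked arrays and 1 to 5 without 1 array (1, Hspbp1, without naive replicate 3; 2, Hspa9 and Hspbp1, without any 1 effector array or postmitotic replicate 2). With a replicate block the counts were 28, 14, 21 and 2. Of all genes, 23.6%, 3.81% and 15.2% were called without both Y-linked arrays in effector minus naive, postmitotic minus naive and postmitotic minus effector cells. Those shares were 23.8% to 31.6%, 6.46% to 11.1% and 18.6% to 26.5% with 1 array left out. Over all genes, the postmitotic minus naive count of 1556 was 2351 with the trended and robust prior, 575 with 6 arrays, 501 without both Y-linked arrays, 797 by the authors' criteria and 849 without naive replicate 3. With 1 array left out at a time, 23 of 32, 8 of 18 and 16 of 24 members kept their calls in effector minus naive, postmitotic minus naive and postmitotic minus effector cells, and 20, 5 and 15 kept them under every alternative refitted with limma. The 5 were Dnaja1, Dnajb2, Dnajc15, Hspbp1 and Hsph1. Of 19, 12 and 15 called members with several probe sets, 7, 8 and 3 had a probe set of opposite sign. Among the called differences of the members chosen by rule for values on every array, 643 recomputed values kept their direction and side of the threshold and 71 kept their direction but no longer passed; other called members are not in this tally. For Cct3, one of these others, the difference in postmitotic minus naive cells, -0.34, became 0.03 with its probe sets averaged. The causes were not tested. For 8 members with an array at or below zero signal, dim signal limits what the arrays can show.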
